A study of Homo sapiens with 12 samples.

Results

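The miR-106b, miR-93, miR-25 cluster comprises 3 miRNA hairpins in an intron of MCM7, a gene for a subunit of the replicative helicase. Its members were chosen by name, as every mature miRNA entry of miR-106b, miR-93 or miR-25 in the deposited tables, with earlier results of these data known. This gave 6 arms of 314 mature miRNAs: miR-106b-5p, miR-106b-3p, miR-93-5p, miR-93-3p, miR-25-5p and miR-25-3p. All 6 were listed both in the table without LPS, which holds 285 mature miRNAs, and in the table with LPS, which holds 262.

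Small noncoding RNA was sequenced from Mono Mac 6 (MM6), a human cell line with monocyte features, in 12 libraries. The wild-type and the 5-LO knockout cells (ALOX-5 -/-) were each sequenced without and with lipopolysaccharide (LPS), the endotoxin that monocytes sense through TLR4, with 3 libraries per group. Cells of all 4 groups had been differentiated with 1 ng/mL TGF-beta and 50 nM calcitriol, for 72 h according to the labels and a figure legend of the study, and for longer according to its methods. The LPS groups additionally received 1 µg/mL LPS for 6 h. The knockout cells are CRISPR/Cas9 clones grown from single cells, and the labels do not say which clone gave which library, so that clone and genotype cannot be told apart. ALOX5, the gene for 5-lipoxygenase (5-LO), is not among the RNAs this assay measures, and the genotype was not checked from these data.

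The cluster is a paralog of the cluster of miR-17, miR-18a, miR-19a, miR-20a, miR-19b and miR-92a and is transcribed with its host gene, which is active in dividing cells. Its miRNAs are best known for limiting CDKN1A and BCL2L11, regulators of cell cycle exit and apoptosis. In the myeloid lineage, miRNAs with the seed of miR-17 are known to restrain monocyte maturation through RUNX1, a transcription factor.

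A miRNA recognizes its targets mainly through its seed, bases 2 to 8, so the mature sequences show which members act on overlapping targets. All 6 arms were matched in the RefSeq miRNA table (GRCh38.p14), and the 4 abundant arms are shown with their seeds in capitals.
miR-106b-5p: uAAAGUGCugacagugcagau
miR-93-5p: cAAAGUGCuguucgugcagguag
miR-25-3p: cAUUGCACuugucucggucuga
miR-106b-3p: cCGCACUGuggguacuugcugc

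miR-106b-5p and miR-93-5p carry the same seed, which 6 other human miRNAs of the table share, among them miR-17-5p and miR-20a-5p of the paralogous cluster. miR-25-3p has a different seed, shared with 5 others including miR-92a-3p. The seed of miR-106b-3p, the opposite arm of the miR-106b hairpin, occurs in no other human miRNA of that table. The 3 abundant paralogs with which the arms are compared are as follows, again with the seed in capitals.
miR-17-5p: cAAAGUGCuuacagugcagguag
miR-20a-5p: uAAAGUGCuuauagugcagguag
miR-92a-3p: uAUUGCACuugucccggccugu

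Read from the first base without gaps, miR-93-5p and miR-17-5p were identical at 19 of 23 positions, and miR-106b-5p and miR-20a-5p at 18 of 21. miR-25-3p matched miR-92a-3p at 18 of 22 positions. The arms of the cluster itself were further apart, with 16 of 21 positions identical between miR-106b-5p and miR-93-5p. How many mismatches the counting allowed is not given in the sources used here, so reads shared between near-identical miRNAs cannot be told apart.

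The hairpins lie on the minus strand of chromosome 7 in the GRCh37 build, the build of the deposited tables (hg19). MIR106B comes first in the direction of transcription at chr7:99691616-99691697, followed by MIR93 at chr7:99691391-99691470 and MIR25 at chr7:99691183-99691266. In the canonical MCM7 transcript all 3 are in intron 13, which is 771 bases long, with 145 bases between MIR106B and MIR93 and 124 bases between MIR93 and MIR25. Of 13 annotated MCM7 transcripts, 9 span the cluster and 8 of these hold all 3 hairpins in 1 intron.

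**Figure D1:**
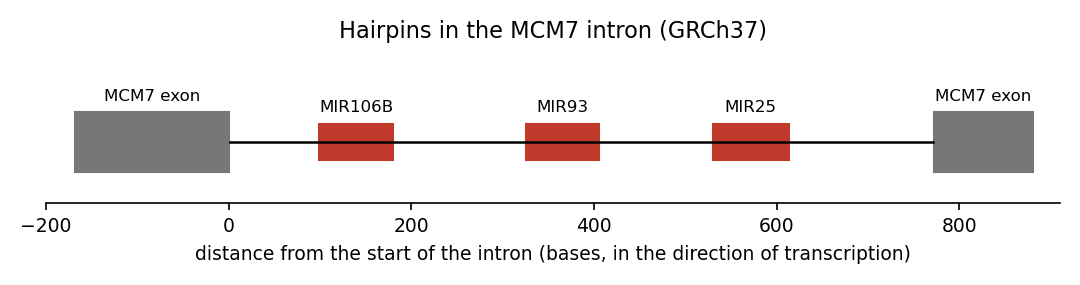
Map of the MCM7 intron that holds the cluster, drawn to scale in GRCh37. The x axis gives the distance in bases from the start of the intron in the direction of transcription, grey boxes are the flanking exons and red boxes are the hairpins, in the order MIR106B, MIR93, MIR25 within 771 bases.

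The tables give the authors' mean of normalized reads over the 3 libraries of each group and no value per library. miR-93-5p was the most abundant member in every group, with means of 539.0 in wild-type and 744 in knockout cells without LPS and of 406 and 499 with LPS. miR-25-3p followed, with 343 and 581 without LPS and 275 and 361 with LPS. miR-106b-3p had means of 60.8 and 85.4 without LPS and of 43.3 and 60.7 with LPS. By reads, the order of these arms was thus miR-93-5p, miR-25-3p, miR-106b-3p and miR-106b-5p in each group. The 95% counting intervals of neighbours did not overlap within any group. The tables with and without LPS were normalized separately, so levels are not compared across them.

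For miR-106b-5p, whose means were 21.3 and 26.2 without LPS and 17.1 and 16.4 with LPS, the reads of single libraries could be worked back from the printed digits in 3 of the 4 groups. The wild-type libraries without LPS held 18, 26 and 21 reads, or 14.4, 25.6 and 23.8 after normalization. The knockout libraries without LPS held 30, 27 and 20 reads, or 22.5, 28.6 and 27.6 after normalization. These ranges overlap, and the lowest of the 6 values is a wild-type library. An exact two-sided permutation test of the 3 knockout against the 3 wild-type libraries gave p = 0.30 (0.60 adjusted over the 3 arms tested in this way), where 0.10 is the smallest p this design allows. The labels do not say whether the libraries came from separate cultures, although the study describes independent experiments, so this p measures the spread between these libraries. The knockout libraries with LPS held 18, 10 and 19 reads (13.8, 11.98 and 23.4 normalized), and for the wild type with LPS 3 splits of the mean were possible.

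miR-93-5p was number 21 among the 285 mature miRNAs listed for wild-type cells without LPS, and miR-106b-5p was number 90. From the recovered size factors, the wild-type mean of miR-93-5p corresponds to about 1697 reads over the 3 libraries, that of miR-25-3p to 1080, that of miR-106b-3p to 192 and that of miR-106b-5p to 65 recovered reads. Precision therefore differs widely between the arms. The reads carry no molecular identifiers shown in the tables, so all intervals given cover counting error only unless stated otherwise.

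**Figure D2:**
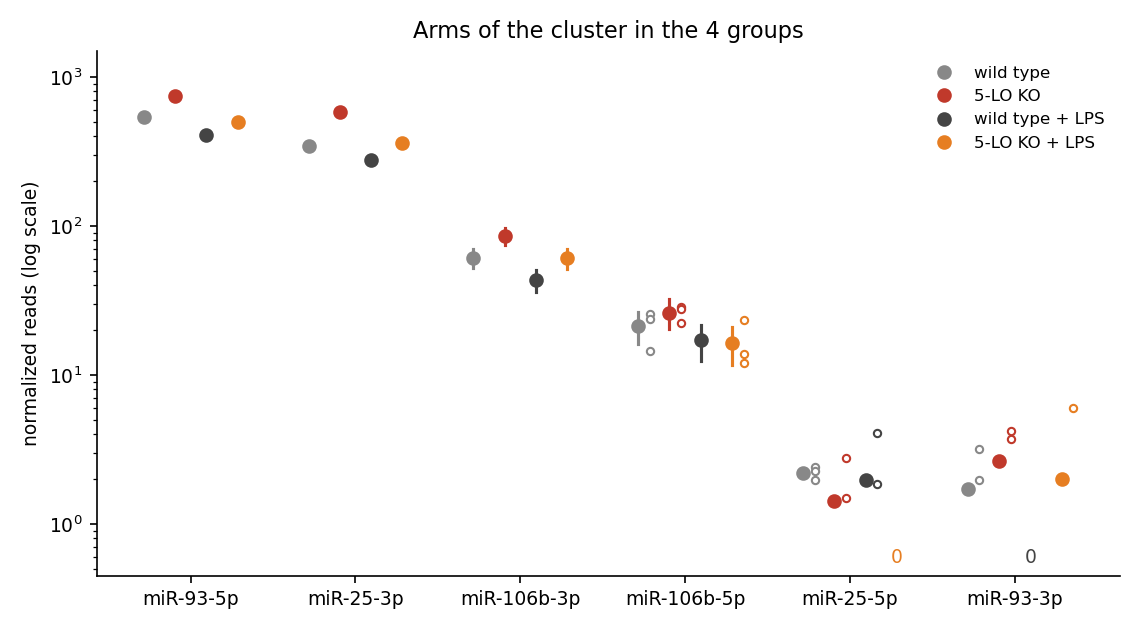
Mean normalized reads of the 6 arms in the 4 groups on a log scale. Filled points are the authors' means over 3 libraries, vertical lines are 95% counting intervals for means above 10 and open points are single libraries where the reads could be recovered in 1 way (libraries at 0 are not drawn). Both groups listed at 0 are marked with the digit, and miR-93-5p runs from 406 to 744.

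The passenger arms were near the limit of detection. miR-25-5p held 3, 2 and 2 reads in the wild-type libraries and 2, 0 and 2 in the knockout libraries without LPS. With LPS there were 7, 2 and 0 reads in the wild-type libraries, and the knockout mean is listed at 0. miR-93-3p held 4, 2 and 0 reads in wild-type and 5, 4 and 0 in knockout libraries without LPS. With LPS it was listed at 0 in the wild type and rested on 5 reads of 1 library in the knockout group. Among mature miRNAs with means up to 10, each group held 9 to 12 library values of 1 read against 77 to 99 of 2 reads. Whether a 0 of these arms stands for no read or for a single read was therefore not resolved, and the intervals do not cover this. The log2 ratio of knockout to wild-type means without LPS was -0.64 for miR-25-5p (95% counting interval -2.42 to 1.14) and 0.62 for miR-93-3p (-0.98 to 2.23), so no difference was detectable at this depth. Leaving out 1 library at a time moved these values widely, from -1.56 to -0.06 for miR-25-5p and from 0.04 to 1.43 for miR-93-3p.

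The share of reads from each arm differed between the hairpins, and whether it equals the share of molecules was not tested. miR-93-5p made up 99.7% of the 2 arms of its hairpin in wild-type cells without LPS, and miR-25-3p 99.4% of its own. The miR-106b hairpin, in contrast, gave 74.1% of its arm reads from the 3p arm in wild-type and 76.5% in knockout cells without LPS, and 71.7% and 78.7% with LPS. The tables also list the hairpins as precursor entries, and those of mir-93 and mir-25 were between 99.8% and 100% of the sum of their arms. The mir-106b entry was below that sum, at 78.7 against 82.1 in wild-type cells without LPS. The precursor entries therefore add no separate measure of unprocessed hairpin.

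Without LPS, the comparison of genotypes gave higher means in knockout cells for all 4 abundant arms. The log2 ratio of the knockout to the wild-type mean was 0.76 for miR-25-3p (95% counting interval 0.65 to 0.87), a 1.69-fold difference. It was 0.49 for miR-106b-3p (0.21 to 0.77) and 0.46 for miR-93-5p (0.37 to 0.56). For miR-106b-5p it was 0.30, and its interval of -0.18 to 0.78 includes 0. In bulk RNA, fewer cells of a type and less RNA per cell cannot be told apart.

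Counting error leaves out the spread between libraries, which the deposited means hide. A spread borrowed, after the data were seen, from the mature miRNAs with means from 5 to 30 whose reads could be recovered in 1 way corresponds to a coefficient of variation between libraries, beyond counting error, of 16.5% in wild-type and 35.9% in knockout cells. With it, the interval of miR-25-3p widened to 0.10 to 1.41, and those of miR-93-5p (-0.19 to 1.12) and miR-106b-3p (-0.21 to 1.19) included 0. With the wider spread from means up to 10, which had been planned, the interval of miR-25-3p also included 0 (-0.98 to 2.50). It did so as well with the spread from means of 5 to 30 under each of 4 other scalings of the knockout column, with lower limits from -0.22 to -0.04. Abundant miRNAs may vary less than those from which this spread was taken, which was not tested. For miR-93-5p, miR-25-3p and miR-106b-3p no library values could be recovered in 1 way, so the genotypes were not tested between libraries.

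Ratios above 0 were common among the mature miRNAs of this table. Of 111 mature miRNAs with an average mean of at least 10, 23.4% were at least 1.5-fold higher in knockout cells and 4.50% at least 1.5-fold lower, and their median log2 ratio was 0.17. Of the 4 cluster arms among them, 1 (miR-25-3p) was at least 1.5-fold higher and none was lower, with a median of 0.48. miR-25-3p ranked number 14 of the 111 from the highest ratio, miR-106b-3p number 32, miR-93-5p number 36 and miR-106b-5p number 44. The mature miRNAs with an average mean of at least 50 had a median log2 ratio of 0.22. When the knockout column was rescaled to bring their median to 0, the split of higher to lower miRNAs with an average mean of at least 10 went from 26 and 5 to 12 and 11. The log2 ratio of miR-25-3p was then 0.54 (0.43 to 0.65), under 1.5-fold, and that of miR-93-5p 0.25 (0.15 to 0.34). Rescaling to equal sums of the mature miRNAs other than miR-3607, whose hairpin is annotated as a snoRNA, took miR-25-3p to 0.43, miR-93-5p to 0.14, miR-106b-3p to 0.16 and miR-106b-5p to -0.03, so that the direction of miR-106b-5p depends on the scaling.

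With LPS, the same comparison gave smaller ratios for miR-25-3p and miR-93-5p. The log2 ratio of knockout to wild type was 0.39 for miR-25-3p (0.26 to 0.53), 0.30 for miR-93-5p (0.19 to 0.41) and 0.49 for miR-106b-3p (0.16 to 0.82). For miR-106b-5p it was -0.06 (-0.64 to 0.51), and its sign turned when either of 2 knockout libraries was left out (0.05 and 0.12). With the borrowed spread, the intervals of all 4 arms included 0. Of 108 mature miRNAs in this table, 18.5% were at least 1.5-fold higher and 4.63% at least 1.5-fold lower in knockout cells, with a median log2 ratio of 0.14, and none of the 4 cluster arms reached 1.5-fold. Their median was 0.35. The mature miRNAs with an average mean of at least 50 had a median log2 ratio of 0.28 in this table. After rescaling their median to 0, the split of higher to lower miRNAs with an average mean of at least 10 went from 20 and 5 to 9 and 17, miR-25-3p was at 0.11 and miR-93-5p at 0.02. With equal sums of mature miRNAs other than miR-3607, miR-93-5p was at -0.03, so that its direction with LPS depends on the scaling as well.

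**Figure D3:**
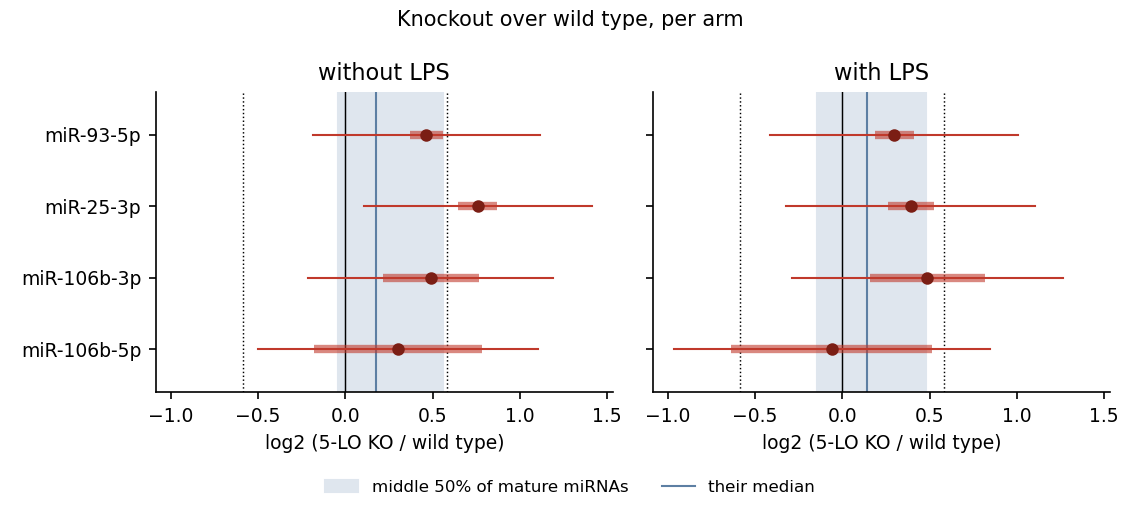
Log2 ratio of the knockout to the wild-type mean for the 4 abundant arms, without LPS (left) and with LPS (right). Points are the ratios, thick bars 95% counting intervals, thin bars intervals that add the spread borrowed from means of 5 to 30, dotted lines mark 1.5-fold, and the shaded band and blue line give the middle 50% and the median of the mature miRNAs with an average mean of at least 10. Of the thin bars, that of miR-25-3p without LPS stays clear of 0 in the deposited scaling. It does not under the 4 other scalings or with the spread from means up to 10 (-0.98 to 2.50), which are not drawn.

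Each ratio was taken within its own table, and the difference between the ratios with and without LPS still depends on how each table was scaled. For miR-25-3p the log2 ratio with LPS was lower than that without by 0.37, written as a difference of -0.37 (95% counting interval -0.54 to -0.19). Over the other scalings it ranged from -0.46 to -0.26. The difference was -0.17 for miR-93-5p (-0.31 to -0.02), which became -0.06 (-0.21 to 0.08) with equal sums of all noncoding RNAs. It was -0.36 for miR-106b-5p (-1.11 to 0.39) and 0.00 for miR-106b-3p (-0.43 to 0.43). With the borrowed spread every one of these 4 intervals included 0, that of miR-25-3p running from -1.34 to 0.60. Whether LPS altered the difference between the genotypes beyond the spread of libraries was therefore not resolved by these means.

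Ratios between arms within a group do not depend on how the columns were scaled. Without LPS, the ratio of miR-25-3p to miR-93-5p stood at 0.636 in wild-type and at 0.781 in knockout cells, a log2 change of 0.30 (0.15 to 0.44). With LPS it was 0.678 and 0.723, a change of 0.09 (-0.08 to 0.27). Without LPS, miR-106b-3p stood to miR-93-5p as 0.113 in wild-type and as 0.115 in knockout cells, and the change had an interval of -0.27 to 0.32. For miR-106b-5p to miR-93-5p the ratios were 0.0395 and 0.0352 without LPS and 0.0421 and 0.0329 with LPS. Among the 6 ratios between member arms examined in each table, that of miR-25-3p to miR-93-5p without LPS was the only change whose counting interval excluded 0, and with the borrowed spread (-0.63 to 1.22) it included 0.

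The 2 arms of the miR-106b hairpin come from 1 precursor molecule. In reads, miR-106b-3p exceeded miR-106b-5p by 2.86-fold in the wild type and 3.26-fold in the knockout without LPS. With LPS it did so by 2.53-fold and 3.70-fold. The log2 change was 0.19 without LPS (-0.36 to 0.74) and 0.55 with LPS (-0.11 to 1.21). Both intervals include 0, so a change in arm usage was not detectable at this depth.

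The share of all mature miRNA reads held by the cluster can be set side by side across the tables. The 6 arms together held 0.945% of the mature sum in wild-type cells (95% counting interval 0.912% to 0.979%) and 1.27% in knockout cells (1.23% to 1.31%) without LPS. With LPS the shares were 0.798% (0.765% to 0.831%) and 0.852% (0.819% to 0.884%). In these means the share was higher in knockout than in wild-type cells without LPS, and lower with LPS than without it in both genotypes. The borrowed spread between libraries was not added to these shares, so differences beyond counting error were not tested. These shares depend on miR-3607, whose entries made up 43.4% and 35.8% of the mature sum without LPS and 42.0% and 38.5% with LPS. Without them the cluster held 1.67% and 1.98% without LPS, and 1.37% and 1.38% with LPS, so that with LPS the genotypes were nearly equal.

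As miRNAs with the same seed share many targets, the arms were also set against the other members of their seed families. miR-93-5p and miR-106b-5p together made up 19.1% of the reads with their seed in wild-type cells (18.3% to 19.9%) and 25.6% in knockout cells (24.6% to 26.5%) without LPS. With LPS the shares were 18.1% (17.2% to 19.0%) and 23.3% (22.3% to 24.4%). The counting intervals of the genotypes did not overlap in either table, but the borrowed spread between libraries was not added to these shares. The summed reads of this seed family had log2 ratios of knockout to wild type of 0.04 without LPS and -0.08 with LPS in the deposited scaling, and of -0.29 to -0.11 and -0.41 to -0.15 in the others, and miR-20a-5p was its most abundant member in every group.

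Within this seed family the genotype ratios differed between members. The log2 ratio of knockout to wild type was -0.18 for miR-17-5p without LPS and -0.23 with LPS, and -0.01 and -0.14 for miR-20a-5p, against 0.46 and 0.30 for miR-93-5p and 0.30 and -0.06 for miR-106b-5p. For miR-20a-5p without LPS the counting interval (-0.08 to 0.05) includes 0, and the sign of miR-93-5p with LPS and of miR-106b-5p without LPS depends on the scaling. Without LPS, the ratio of miR-93-5p to miR-17-5p stood at 0.536 in wild-type and at 0.838 in knockout cells, a log2 change of 0.64 (0.52 to 0.76). With LPS it was 0.504 and 0.727, a change of 0.53 (0.39 to 0.67). Against miR-20a-5p the log2 change was 0.48 without LPS (0.37 to 0.59) and 0.44 with LPS (0.31 to 0.57). These changes do not depend on scaling. With the borrowed spread, again entered as independent for the 2 miRNAs, each interval included 0, the first running from -0.28 to 1.56.

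miR-25-3p was a minor member of its seed family. It held 3.31% of the reads with its seed in wild-type cells (3.11% to 3.51%) and 4.44% in knockout cells (4.23% to 4.65%) without LPS, and 3.09% and 3.14% with LPS. miR-92a-3p, the main member, had means of 9990 and 12461 without LPS and of 8598 and 11100.5 with LPS. The ratio of miR-25-3p to miR-92a-3p had a log2 change of 0.44 without LPS (0.33 to 0.55) and of 0.02 with LPS (-0.11 to 0.16). In the table with LPS, the ratio of knockout to wild type was thus nearly the same for miR-25-3p and miR-92a-3p. With the borrowed spread, entered in the same way, the interval of the change without LPS also included 0 (-0.48 to 1.36).

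**Figure D4:**
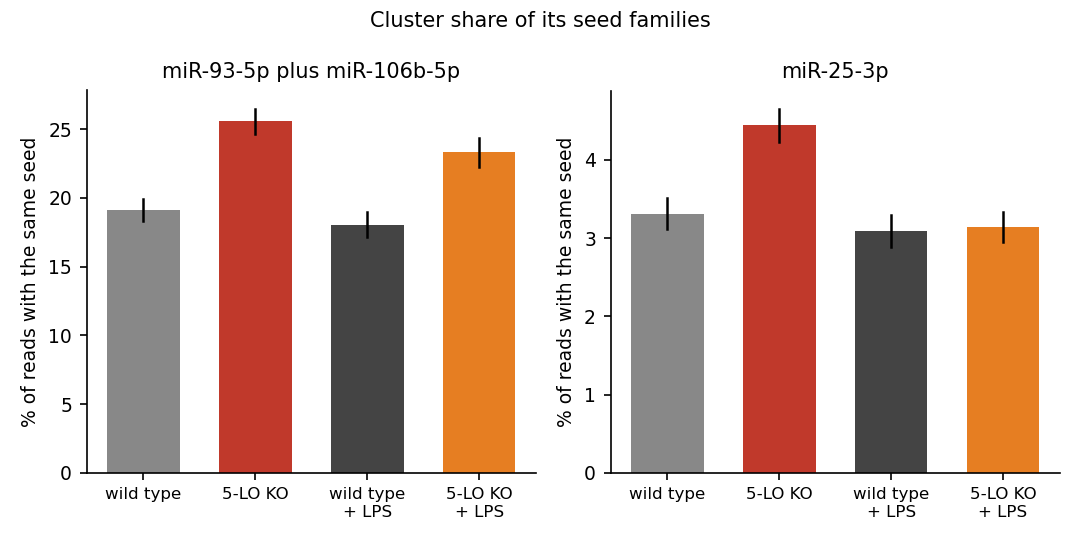
Share of the cluster, in percent, in the reads of its seed families for the 4 groups, with 95% counting intervals as vertical lines. On the left, miR-93-5p plus miR-106b-5p go from 19.1% in wild-type to 25.6% in knockout cells without LPS and from 18.1% to 23.3% with LPS, and on the right miR-25-3p goes from 3.31% to 4.44% without LPS and is at 3.09% and 3.14% with LPS.

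A list of 21 seed relatives and arms of the paralogous clusters was described in the same way. Without LPS, 15 were listed and 10 had an average mean of at least 10. Of these 10, 1 (miR-92a-1-5p, log2 ratio 0.83) was at least 1.5-fold higher in knockout cells and 0 were lower in the deposited scaling, beside 23.4% and 4.50% of all mature miRNAs at that level. The median log2 ratio of the list was 0.06 against 0.17 over all of them in the deposited scaling. The other scalings lower every ratio of a table by the same amount, and the median of the list was then between -0.26 and -0.08, with 0 to 1 members at least 1.5-fold higher and 0 to 2 lower. The median over all mature miRNAs at that level was then between -0.14 and 0.03. Of them, 9 to 14 were at least 1.5-fold higher and 9 to 18 lower. With LPS, 9 were measured at that level, none passed 1.5-fold in either direction in the deposited scaling, beside 18.5% and 4.63% of all mature miRNAs, and the median was -0.14 against 0.14, or as low as -0.47 under the other scalings. miR-18a-5p was then at least 1.5-fold lower in all 4 of these, miR-19a-3p in 3 and miR-18a-3p in 1. Of all mature miRNAs at that level with LPS, 9 to 20 were lower under these scalings and 6 to 15 higher. The median over all of them was between -0.17 and 0.08. Of the arms of the miR-17 cluster, miR-18a-5p had ratios of -0.41 and -0.53 and miR-18a-3p of -0.30 and -0.30. miR-19a-3p was at 0.16 and -0.36, and miR-19b-3p at 0.37 and 0.04. miR-17-3p was at 0.09 without LPS, and miR-92b-3p, a seed relative of miR-25-3p encoded elsewhere, was at 0.04 and -0.02.

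By the distance between the log2 ratios without and with LPS, the patterns nearest to the cluster arms were sought among 69 other mature miRNAs with an average of the 4 means of at least 50. For miR-25-3p these were miR-30d-5p (0.66 without and 0.43 with LPS, distance 0.11), miR-92a-1-5p and miR-30e-5p. For miR-93-5p they were let-7g-5p (0.41 and 0.28, distance 0.06), let-7f-5p and let-7d-5p. miR-106b-3p lay nearest to miR-140-3p (0.48 and 0.54, distance 0.05), miR-423-3p and let-7d-5p, and miR-106b-5p to miR-664b-3p (0.30 and -0.08, distance 0.02), miR-19b-3p and miR-1307-3p. Each pattern consists of 2 values, one per table, from 6 libraries each, so many miRNAs lie close to each other. Of the 72 miRNAs at this level, which include 3 cluster arms, 42 had a ratio above 0 in both tables as deposited. This number was 35 with equal sums of all noncoding RNAs and 31 with equal sums of mature miRNAs. It was 27 after rescaling to a median of 0 and 21 with equal sums without miR-3607.

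**Figure D5:**
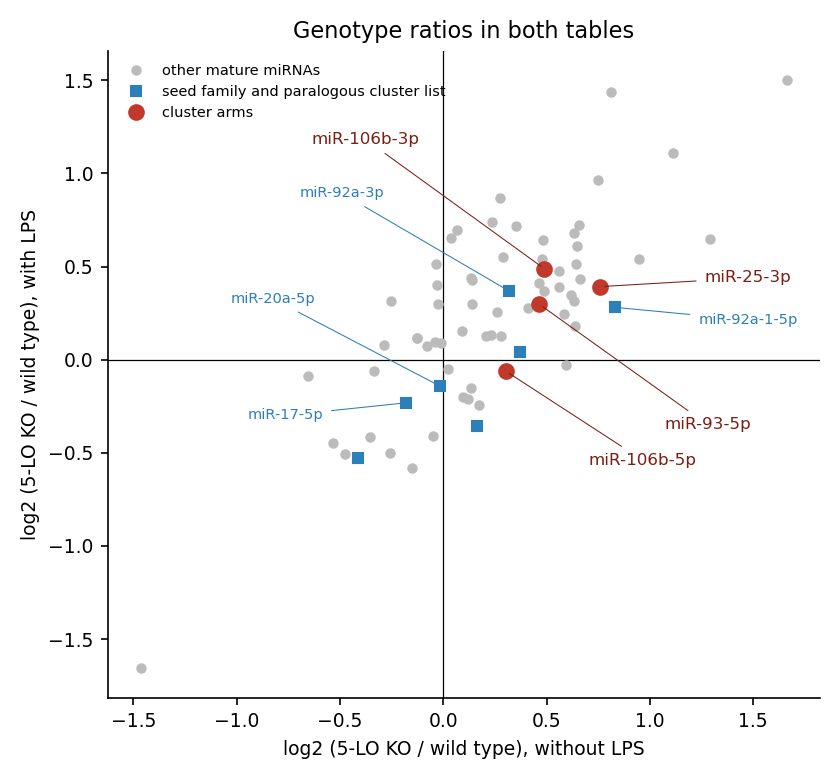
Log2 ratio of knockout to wild type without LPS (x axis) and with LPS (y axis) for mature miRNAs with an average of the 4 means of at least 50 (grey), list members (blue squares) and the 4 abundant cluster arms (red, miR-106b-5p shown although below that level). miR-25-3p, miR-93-5p and miR-106b-3p lie above 0 on both axes in the deposited scaling, with miR-93-5p turning to -0.03 with LPS under equal sums without miR-3607, while miR-17-5p lies below 0 on both.

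The libraries were also checked for markers of the labelled cell type. All 3 miRNAs listed as myeloid were present, with miR-142-5p, the most abundant, at 323 and 394 without LPS and 254 and 372 with LPS. miR-142-3p was at 97.9 and 95.2 without LPS and miR-223-3p, a granulocyte and monocyte miRNA, at 93.8 and 74.3. The 3 markers summed to 515 in wild-type and 564 in knockout cells without LPS, and to 389 and 510 with LPS. Of 11 markers of erythroid, epithelial, hepatocyte, muscle, neuronal and endothelial cells, only miR-200c-3p was listed, at 1.19 in wild-type cells without LPS and 1.00 with LPS and at 0 in both knockout groups. No lymphoid marker was on the list, so myeloid cells were not set apart from other blood cells. The log2 ratios of knockout to wild type of the 3 markers listed as myeloid went in different directions. They were -0.34 and -0.06 for miR-223-3p without and with LPS, -0.04 and 0.10 for miR-142-3p, and 0.29 and 0.55 for miR-142-5p. Their part in the cluster's values was not tested.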

How the data were processed

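Small RNA libraries of 12 samples were assigned to 4 groups of 3 from their labels. The deposited signal columns hold, for each genotype, the mean over 3 libraries of reads normalized by the authors with omiRas after trimming of the kit's adapters and annotation against hg19. Which version, aligner, mismatch limit and scaling were used is not given in the sources used here. Further columns with the authors' own fold changes, p-values and adjusted p-values were not used. The design had allowed for values per library. As the tables hold means, no model was fitted across miRNAs. Exact permutation tests between libraries were added after the data were seen, for the 3 arms with reads recovered in 1 way in both genotypes without LPS (miR-106b-5p, p = 0.30, miR-93-3p, p = 0.60, and miR-25-5p, p = 0.50, each 0.60 after Benjamini-Hochberg adjustment).

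The size factors of the libraries were recovered from means up to 10 as 3 steps whose whole multiples give each printed value within the rounding of its 6 digits (100% of these values in each of the 4 columns, each in 1 way). Finer steps that divide these would fit equally, and the coarsest were taken. They ranged from 0.883 to 1.25 in wild-type and from 0.725 to 1.34 in knockout libraries without LPS, and from 0.665 to 1.72 and 0.812 to 1.30 with LPS. Single reads were rare (9 library values of 1 read against 80 of 2 reads among the low miRNAs of the wild type). This may inflate the spread estimated from means up to 10, which was not tested. A spread from means of 5 to 30 was therefore added after the data were seen, from the miRNAs whose reads split in 1 way. These were 44 of 45 in wild-type and 44 of 46 in knockout cells without LPS. With LPS they were 15 of 42 and 36 of 43, with coefficients of variation of 32.1% and 28.4%. Whether the 15 stand for the 42 was not tested. Dispersion was fitted by a negative binomial likelihood. Intervals of log2 ratios, of their differences and of changes of ratios are 95% normal intervals on the log2 scale. Those of means and shares are 95% normal intervals on the linear scale. The recovery of size factors and reads was tested on simulated tables (seed 1). Coverage of intervals was checked there only with the simulated spread entered as known. Intervals from counting error alone or with an estimated spread were not checked. The simulated reads did not mimic the rarity of single reads.

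Ratios were taken directly from the means, without a pseudocount, and none is given where a mean is listed at 0. The members and lists were chosen with earlier results of these data known. Named miRNAs are all arms of the cluster, list members with an average mean of at least 10, the 3 miRNAs nearest to each abundant arm by Euclidean distance, and markers of cell types. Alternatives were other scalings, pseudocounts of 0.1, 1 and 10, minimum means of 0 and 50, a fold of 2, both spreads, other denominators of shares and leaving out recovered libraries. Scaling without miR-3607, and other scalings of the list, of the seed families and of the differences between tables, were added after the data were seen, as were scalings combined with the spread from means of 5 to 30 for miR-25-3p without LPS. Loci were taken from the GENCODE annotation, release 44, lifted to GRCh37. Scripts ran in Python 3.11.15 with scipy 1.17.1 for fits, pandas 2.3.3 and numpy 2.4.6 for tables, and matplotlib 3.10.9 for plots.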

Additional observations from a re-analysis of the deposited data

How the results depend on the processing

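No paired analysis was possible because the deposited columns are means and carry no replicate number. Of 194 log2 ratios, differences and changes under other settings, 143 kept their direction and their side of the threshold (whether the 95% interval excludes 0, or the p where a permutation test was run). Some of the 143 could not have changed, as an added spread leaves an interval that already includes 0 on the same side. The permutation tests allow no p below 0.10. The number is therefore no measure of stability. Of 78 counts, medians and shares, 30 stayed within 1.5 times the value (counts), the standard error over the list (medians) or the counting interval (shares). All 30 ratios of the arms kept direction and side under pseudocounts of 0.1, 1 and 10. Adding a spread between libraries leaves each value as it is and widens its interval. For changes of ratios it was entered as independent for the 2 miRNAs. With either spread, the intervals then included 0 for log2 ratios without LPS of 0.49 (miR-106b-3p) and 0.46 (miR-93-5p), with LPS of 0.49 (miR-106b-3p), 0.30 (miR-93-5p) and 0.39 (miR-25-3p), for the differences with LPS minus without of -0.17 (miR-93-5p) and -0.37 (miR-25-3p), and for the changes of ratios of 0.30 (miR-25-3p to miR-93-5p without LPS), 0.64 and 0.53 (miR-93-5p to miR-17-5p without and with LPS), 0.48 and 0.44 (miR-93-5p to miR-20a-5p) and 0.44 (miR-25-3p to miR-92a-3p without LPS). The 0.76 of miR-25-3p without LPS kept its interval above 0 with the spread from means of 5 to 30 in the deposited scaling only. That interval included 0 with equal sums of all RNAs (0.59, lower limit -0.070), of mature miRNAs (0.61, -0.042), with a median of 0 (0.54, -0.11) and without miR-3607 (0.43, -0.22), and so did the one with the spread from means up to 10 (-0.98 to 2.50).

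With equal sums of mature miRNAs the interval came to include 0 for miR-106b-3p (0.24) and miR-93-5p (0.055) with LPS. With a median of 0 it did so for miR-106b-3p without LPS (0.27) and with LPS (0.21), miR-93-5p (0.017) and miR-25-3p (0.11) with LPS. With equal sums without miR-3607 it did so for miR-106b-3p (0.16 in both tables) and miR-25-3p with LPS (0.065), while miR-106b-5p without LPS (-0.026) and miR-93-5p with LPS (-0.029) changed sign. The difference with LPS minus without became -0.062 for miR-93-5p, with an interval that includes 0, and 0.10 for miR-106b-3p with equal sums of all RNAs. The median of the list without LPS turned to -0.11 with equal sums of all RNAs, -0.082 of mature miRNAs, -0.15 with a median of 0 and -0.26 without miR-3607, and with LPS it went to -0.39, -0.42 and -0.47 under the last 3. In the same order of scalings, the summed reads with the seed of miR-93-5p turned to -0.14, -0.11, -0.18 and -0.29 without LPS. Scaling shifts all ratios of a table alike, and the cause of the sign changes beyond that was not tested. Leaving out a library gave miR-106b-5p ratios from 0.09 to 0.46 without LPS and from -0.41 to 0.12 with LPS, with the sign turned at 0.05 and 0.12. Without miR-3607 the shares of the cluster were 1.67%, 1.98%, 1.37% and 1.38%.

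The number of mature miRNAs at least 1.5-fold higher without LPS (26) was 51 with no minimum, 17 with a minimum of 50, 8 at 2-fold, 13 with equal sums of all RNAs, 14 of mature miRNAs, 12 with a median of 0 and 9 without miR-3607. The number lower (5) was 38, 2, 3, 10, 9, 11 and 18 in the same order, and 3 with a pseudocount of 10. With LPS the number higher (20) was 42 with no minimum, 13 with a minimum of 50, 5 at 2-fold, 10 with equal sums of mature miRNAs, 9 with a median of 0 and 6 without miR-3607. The number lower (5) was 33 with no minimum, 1 with a minimum of 50, 9 with equal sums of all RNAs, 16 of mature miRNAs, 17 with a median of 0 and 20 without miR-3607. With no minimum, 1 of 13 list members with LPS was higher (miR-19b-1-5p, wild-type and knockout means of 0.78 and 2.13). Another was lower (miR-106a-5p, 5.11 and 3.12). These stand beside the 42 higher and 33 lower of all mature miRNAs, and both counting intervals included 0 (-0.73 to 3.65 and -1.91 to 0.49). In the order of scalings above, 1, 2, 2 and 3 list members were lower with LPS. Without LPS, 1 was lower with equal sums of all RNAs and with a median of 0, and without miR-3607 2 were lower and 0 higher.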
